A study of Homo sapiens with 6 samples.

Results

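The genes described here were the rows of a Hep3B RNA-seq count table that carry a name of a long noncoding RNA gene. A row was taken if its name begins with LINC and digits, if it ends in -AS1, -AS2 or -IT1, or if it is NEAT1, MALAT1, MEG3, GAS5, HULC, HOTAIR, SNHG1 or PVT1, and if its 6 counts sum to at least 60. Of 16720 named rows, 4 had such a name and 3 reached the sum: LINC00116 with 1550 counts, LINC00493 with 3815 and LINC00998 with 2659. The row left out, SPTY2D1-AS1, held 5, 4 and 4 counts in the control libraries and 5, 2 and 0 in the knockout libraries, a sum of 20. The 8 individually named RNAs had 0 rows, also under other symbols. Only names and the sum over both groups chose the members, so the difference between the groups was not used.

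The name of the group did not hold for these 3 genes. Both GENCODE release 29 and the current RefSeq annotation list all 3 as protein-coding: LINC00116 is now MTLN, LINC00493 is now SMIM26 and LINC00998 is now SMIM30. They are therefore called here by the table's names and described as genes of microproteins. The matched part of the table was close to a list of coding genes. Of the 15677 rows that matched an annotated gene, 15646 (99.8%) were protein-coding and 13 had a long noncoding type. Another 1043 rows matched no annotated gene, so their type is not known. GENCODE 29 holds 1889 genes with a LINC name and 1310 ending in -AS1, -AS2 or -IT1. Genes of other noncoding types stand outside the rule.

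Hep3B is an established human hepatocellular carcinoma line. The sgControl group (genotype wild type in the labels, 3 libraries) carried a control guide, and the sgRFX6 group (RFX6 knockout, 3 libraries) carried a guide against RFX6, a winged-helix transcription factor of the RFX family best known from pancreatic islets. Knockout lines were made with a Cas9 and guide vector, selected with puromycin and grown from single cells, so a difference between the groups may belong to a clone, and the guide and the clone cannot be told apart. The sources used here do not state whether the 3 libraries of a group came from separate cultures, so the p-values measure only the spread between these libraries.

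Microproteins are translated from open reading frames so short that their transcripts were often first filed as noncoding, and many sit in membranes. MTLN encodes mitoregulin, a protein of the inner mitochondrial membrane tied to respiratory chain function and fatty acid oxidation. SMIM26 also encodes a mitochondrial microprotein. SMIM30 encodes a small membrane protein that has been linked to proliferation of hepatocellular carcinoma cells.

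The reading frames are shown because they are what sets these 3 genes apart from the noncoding names they carry in the table. Each is read 5′ to 3′ from the GENCODE 29 transcripts on GRCh38, with the start codon and the stop codon in capitals. That of LINC00116 (transcript MTLN-203) has 56 codons before the stop and lies in 1 exon at chr2:110212355-110212525 on the minus strand. That of LINC00493 (SMIM26-201) has 95 codons, spans exons 1 and 2 and lies within chr20:18567479-18569405 on the plus strand. That of LINC00998 (SMIM30-201) has 59 codons, all in exon 3, at chr7:113117399-113117578 on the minus strand.
MTLN-203: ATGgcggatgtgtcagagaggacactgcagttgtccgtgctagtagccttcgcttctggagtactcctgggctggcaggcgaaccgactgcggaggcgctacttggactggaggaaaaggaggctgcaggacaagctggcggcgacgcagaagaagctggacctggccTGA
SMIM26-201: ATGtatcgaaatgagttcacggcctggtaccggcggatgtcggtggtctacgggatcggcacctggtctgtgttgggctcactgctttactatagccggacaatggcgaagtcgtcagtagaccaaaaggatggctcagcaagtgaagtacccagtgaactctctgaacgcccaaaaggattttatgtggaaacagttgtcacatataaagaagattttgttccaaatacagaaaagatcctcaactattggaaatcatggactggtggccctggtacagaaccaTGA
SMIM30-201: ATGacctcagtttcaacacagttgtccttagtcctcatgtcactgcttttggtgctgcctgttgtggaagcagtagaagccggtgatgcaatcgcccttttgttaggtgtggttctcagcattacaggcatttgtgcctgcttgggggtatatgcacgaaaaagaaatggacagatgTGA

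The frames differed in base composition as well as in length. The frame of LINC00116 had a GC content of 60.8%, and those of LINC00493 and LINC00998 each had 47.2%. GENCODE also annotates a longer frame of 138 codons in the 9-exon transcript MTLN-201, ending at the same stop, and shorter frames of 94 and 73 codons in other transcripts of SMIM26. The whole genes lie at chr2:110211529-110245420, chr20:18567347-18569563 and chr7:113116718-113118613. RefSeq ends the first of these at 110212547, so the reads counted for LINC00116 depend on which model was used, and the model was not given in the sources used here.

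Each gene also overlaps another annotated gene that has no row in the table. LINC00116 overlaps the pseudogene AC140479.4 and LINC00998 the noncoding gene AC073346.1, both on the opposite strand. AC140479.4 starts at chr2:110231106, so the overlap of LINC00116 holds only in the longer GENCODE model. Whether counting used strand was not given in the sources used here, so without strand the reads of overlapping genes could not be told apart. LINC00493 shares 145 identical bases with AL121900.2, a coding gene on its own strand, and LINC00998 matches the pseudogenes AC109458.1 over 311 bases at 93.9% identity and AL109840.1 over 180 bases at 97.2%. The counts of LINC00493 and LINC00998 are uncertain to that extent.

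The RFX family binds pairs of short half-sites, and the promoters of the 3 genes, from 250 bases before to 50 bases after the start in RefSeq, were searched for GTTGCC and GTTACC on both strands. Neither was found in the 3 promoters. GTTGCC was present in 12.2% of 35116 promoters of the same length and GTTACC in 6.46%, so these letters are uncommon in any promoter, and binding was not measured in these data.

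The libraries held between 16730374 and 25070770 counts, and 3 counts correspond to 0.121 to 0.188 CPM (counts relative to the library total after edgeR's TMM scaling). All 12 hepatocyte markers were detected in every library, with summed levels of 306 to 345 CPM in sgControl and 238 to 260 in sgRFX6. HNF4A was the largest part of the sum, at 109 to 161 CPM over all 6 libraries. ALB stood at 12.9 to 32.1 CPM, APOA1 at 0.695 to 2.45 and TTR at 0.259 to 0.879. Of the 12 markers, AFP, a fetal liver protein, rose (log2 fold change 2.82, adjusted p = 0.00254 by edgeR's quasi-likelihood test). FGB, a fibrinogen chain, fell (-2.45, adjusted p = 0.00417 by edgeR). No other hepatocyte marker was called by edgeR, which called 3.74% of all genes tested, but the list differed more widely. Of the 12, 6 had an unadjusted p under 0.05 by edgeR, against 15.6% of all genes. The groups did not overlap in 7, against 23.1% of all genes. DESeq2 called 4, against 6.97% of all genes. The log2 fold change was positive in 7 hepatocyte markers and negative in 5. Of 8 fibroblast markers 6 were tested, and COL1A1, COL1A2 and PDGFRA fell (-2.08, -3.71 and -4.43), which is 50% called against 3.74% of all genes tested. Of the other tested markers 2 had a positive log2 fold change, and the whole list summed to 190 to 315 and 220 to 285 CPM. FBLN1 made up most of that sum, at 160 to 280 CPM over all 6 libraries. The immune list summed to 73.8 to 160 and 63.4 to 102 CPM, mostly CD68, with PTPRC under 1 CPM and CD3E at or under 0.0454, and the endothelial list to 11.8 to 13.5 and 13.4 to 19.7 CPM. What part these shifts have in the values below was not tested.

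RFX6 itself, as the check of the labels, stood at 5.64, 5.83 and 7.34 CPM in sgControl and at 3.43, 3.71 and 3.50 CPM in sgRFX6. The groups did not overlap, but the log2 fold change of -0.82 (SE 0.26) did not pass the threshold (adjusted p = 0.142 by edgeR's quasi-likelihood test). A frameshift need not lower the transcript of a gene, and the edited bases were not read here. The paper reports that it checked the knockout in its cell lines by real-time PCR and by Western blotting.

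Against this background, none of the 3 LINC-named genes passed the test of sgRFX6 against sgControl. By edgeR's quasi-likelihood test with Benjamini-Hochberg adjustment over 12839 genes, 0 of 3 were called at 0.05, and 0 of 3 had an unadjusted p under 0.05. DESeq2 and limma-voom also called 0 of 3, as did edgeR with the trend in GC content removed. Over all genes these called 6.97%, 31.1% and 11.2%. Over all genes tested, 3.74% were called (1.92% higher and 1.81% lower in sgRFX6) and 15.6% had an unadjusted p under 0.05, which leaves little to be read from a count of 0 among 3. In all 3 genes the groups overlapped, whereas 23.1% of the genes tested did not overlap between the groups.

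LINC00116 had 228, 218 and 303 counts in the sgControl libraries 1 to 3, against 226, 322 and 253 in the sgRFX6 libraries. Scaled to library size, it stood at 11, 8.83 and 13.1 CPM in sgControl and at 11.2, 20.2 and 11.5 CPM in sgRFX6. Replicate 2 of sgRFX6 was the highest library by far, and the other sgRFX6 libraries lay inside the range of sgControl. Its mean was 11 ± 2.12 CPM (SD, n = 3) with the control guide and 14.3 ± 5.13 CPM (SD, n = 3) in the knockout. The log2 fold change was 0.38 (SE 0.30, 95% interval -0.30 to 1.07), with an adjusted p of 0.628 by edgeR's quasi-likelihood test and p = 0.4 by the two-sided exact permutation test, whose smallest possible p with 3 libraries against 3 is 0.1. On the linear scale the interval runs from 0.811-fold to 2.10-fold, so a 2-fold rise lies inside it and a 2-fold fall lies outside. The value rested on replicate 2 of sgRFX6: without that library the log2 fold change was 0.05.

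LINC00493, the most counted of the 3, was counted 548, 935 and 640 times with the control guide, and 588, 547 and 557 times in the knockout. Its levels were 26.4, 37.9 and 27.6 CPM in sgControl and 29.2, 34.4 and 25.3 CPM in sgRFX6. Replicate 2 was the highest library in both groups, and the ranges overlapped. The mean of 30.6 ± 6.29 CPM (SD, n = 3) with the control guide and that of 29.6 ± 4.55 CPM (SD, n = 3) in the knockout differed by less than the spread within either group. The log2 fold change was -0.05 (SE 0.23, 95% interval -0.57 to 0.47), with an adjusted p of 0.957 by edgeR and p = 0.8 by the exact permutation test. The interval, 0.675-fold to 1.38-fold, was the narrowest of the 3 and holds neither a 2-fold rise nor a 2-fold fall.

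LINC00998 was counted 439, 518 and 338 times in sgControl and 404, 242 and 718 times in sgRFX6. Its levels were 21.1, 21 and 14.6 CPM in sgControl and 20.1, 15.2 and 32.6 CPM in sgRFX6. The sgRFX6 libraries spread most widely of all, with replicate 3 at 2.14 times replicate 2, and the sgControl libraries lay within that range except for replicate 3. Its mean was 18.9 ± 3.74 CPM (SD, n = 3) with the control guide and 22.6 ± 8.98 CPM (SD, n = 3) in the knockout, a coefficient of variation of 19.8% in sgControl and 39.7% in sgRFX6. The log2 fold change was 0.26 (SE 0.31, 95% interval -0.45 to 0.97), with an adjusted p of 0.788 by edgeR and p = 0.8 by the exact permutation test. Without replicate 3 of sgRFX6 the sign turned, to -0.10, so the data give no direction for this gene.

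**Figure D1:**
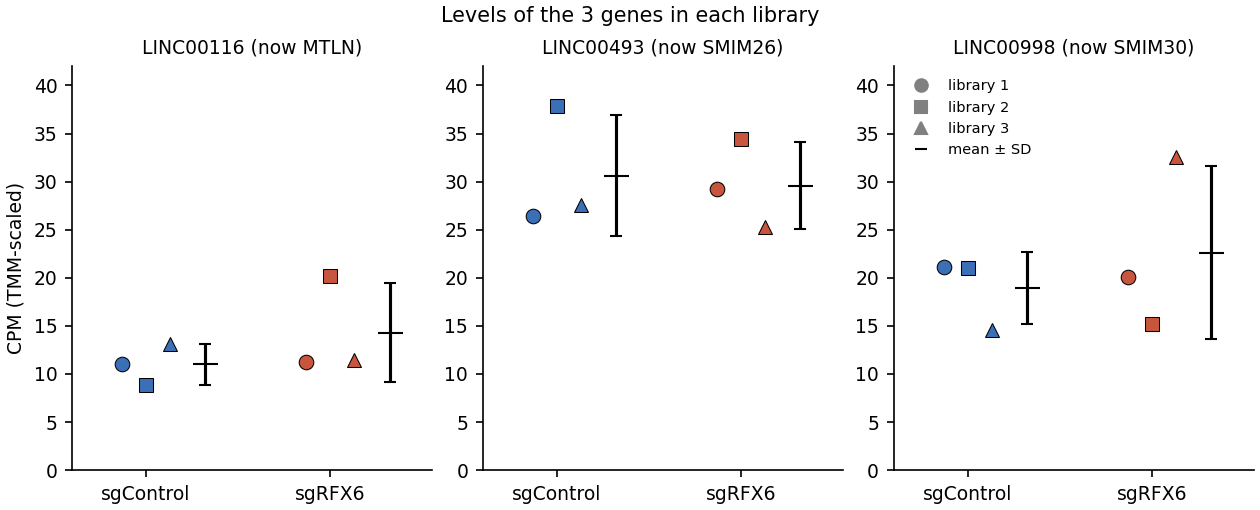
Level of each gene in each library in CPM, on a linear axis from 0, with sgControl in blue, sgRFX6 in red and the mean ± SD (n = 3) beside the points. The groups overlap in all 3 panels, and single libraries stand high, at 20.2 CPM for LINC00116 (sgRFX6 replicate 2) and 32.6 CPM for LINC00998 (sgRFX6 replicate 3).

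Set against all genes tested, these differences were ordinary in size. A larger absolute log2 fold change was found in 33.2% of the genes for LINC00116, in 47.7% for LINC00998 and in 88.8% for LINC00493. The median log2 fold change of all genes was 0.02.

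The order of levels was read per kilobase, since counts of genes of different length are not comparable. Per kilobase of the transcript that holds the reading frame, LINC00493 stood at 60.6 ± 12.5 CPM in sgControl and 58.6 ± 9.01 in sgRFX6 (SD, n = 3). LINC00116 stood at 24.9 ± 4.82 and 32.5 ± 11.6, and LINC00998 at 17.7 ± 3.49 and 21.1 ± 8.39. LINC00493 was highest in all 6 libraries, its lowest library (50.1) being above the highest of LINC00116 (45.9) and of LINC00998 (30.5). The other two lay close together: in sgControl every library of LINC00116 was above the highest of LINC00998 (19.8) by a narrow margin, and in sgRFX6 their ranges, 25.4 to 45.9 and 14.2 to 30.5, overlapped. Divided by the length of all annotated exons instead, LINC00116 fell below LINC00998, with 5.34 ± 1.04 against 9.97 ± 1.97 in sgControl, so their order depends on the gene model, while LINC00493 kept the top place at 27.9 ± 5.73.

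The libraries were also read against the base composition of the transcripts, where LINC00998 lies near the low end. Its transcript has a GC content of 37.0%, and 4.95% of the tested genes with a value had a lower one. Its deviations from its own mean in the sgRFX6 libraries were 0.00, -0.40 and 0.70 on the log2 scale, while the smooth trend of all genes at the same GC content was -0.24, -0.40 and 0.78. Replicates 2 and 3 of sgRFX6 thus deviated about as other genes of that composition did. In sgControl replicate 3 the gene deviated by -0.46 where the trend was -0.09. With the trend removed, the SD of LINC00998 in sgRFX6 went from 0.56 to 0.16 on the log2 scale, and in sgControl, where the deviations did not follow the trend, from 0.31 to 0.39. The log2 fold change became 0.09 (SE 0.21, 95% interval -0.39 to 0.56, adjusted p = 0.847 by edgeR).

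The other genes have less extreme compositions. Their GC content was taken from the longest transcript. The transcripts with the printed frames differ, at 58.0% for LINC00116 and 44.8% for LINC00493, and the trend at those values was not read. For LINC00493, with 54.8% GC in its longest transcript, removing the trend took the SD from 0.28 to 0.16 in sgControl and from 0.22 to 0.11 in sgRFX6, and the log2 fold change to -0.01 (SE 0.14, 95% interval -0.33 to 0.31). For LINC00116, with 50.8%, the SD went from 0.28 to 0.34 and from 0.48 to 0.44. Its high library, replicate 2 of sgRFX6, deviated by 0.73 where the trend was 0.06, so that library was not high among genes of like composition. The log2 fold change of LINC00116 was then 0.36 (SE 0.26, adjusted p = 0.436 by edgeR).

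**Figure D2:**
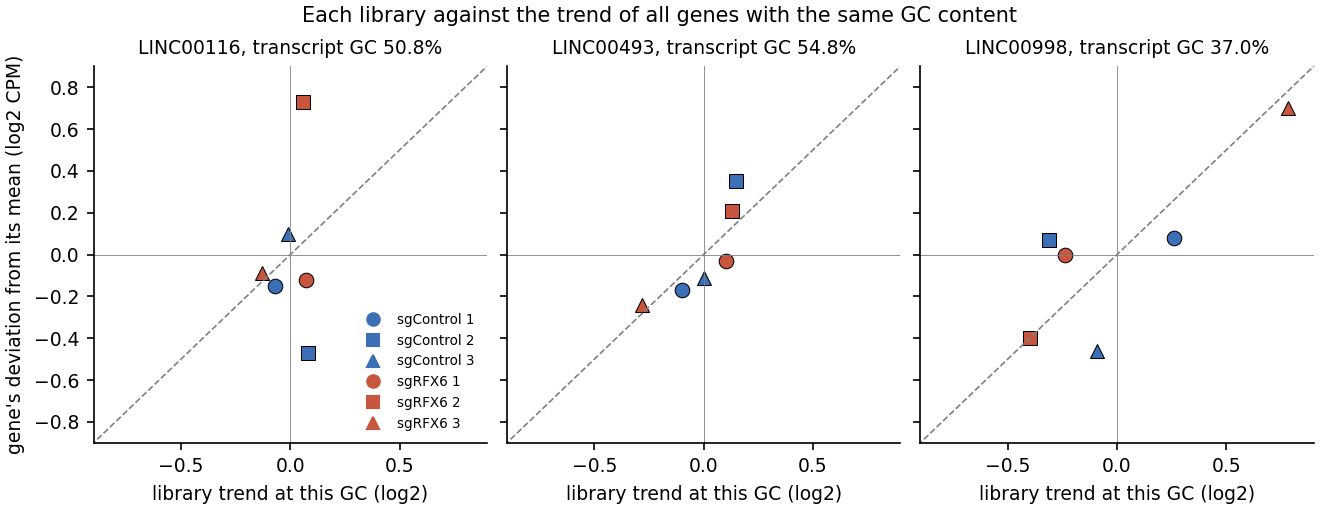
Deviation of each gene from its own mean (vertical axis, log2 CPM) against the smooth trend of all genes of the same GC content in that library (horizontal axis, log2), 1 point per library, with the dashed line where both are equal. GC content is that of the longest transcript. For LINC00998, sgRFX6 replicates 2 and 3 lie near the line (-0.40 against -0.40 and 0.70 against 0.78), whereas sgRFX6 replicate 2 of LINC00116 lies far above it (0.73 against 0.06).

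**Figure D3:**
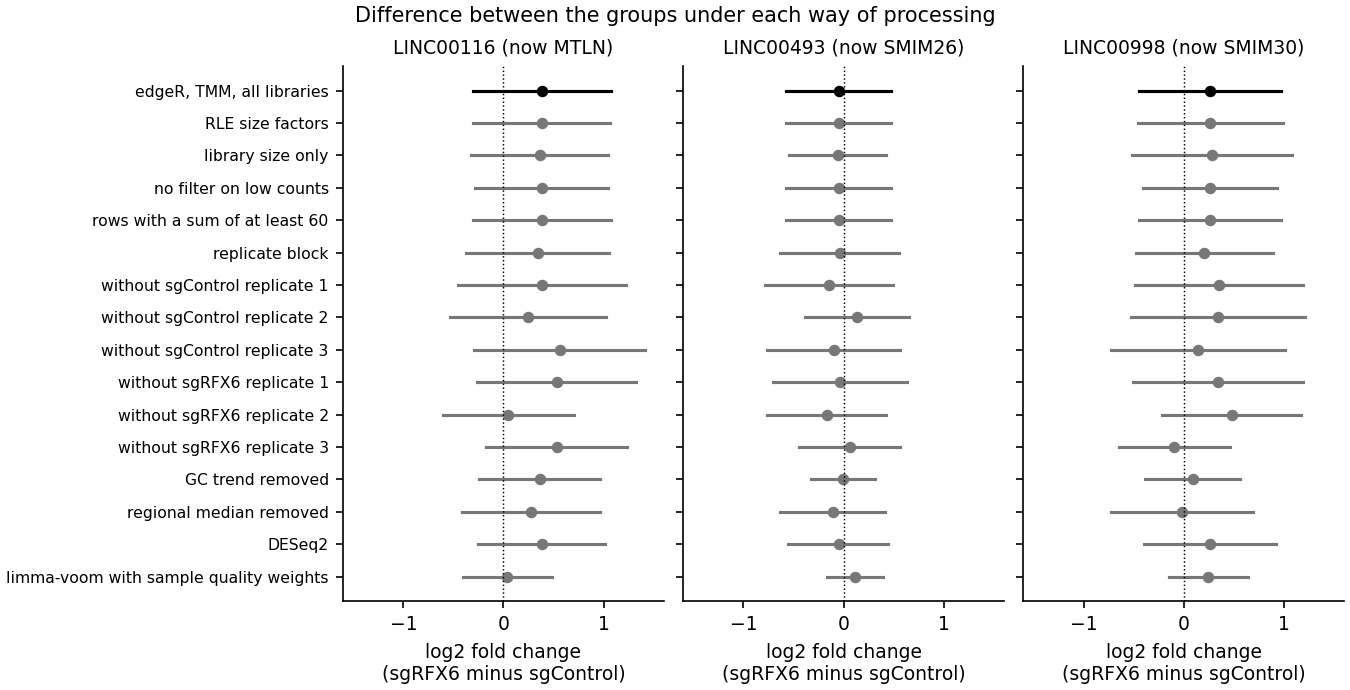
Log2 fold change of sgRFX6 minus sgControl with its 95% interval for each gene, with the reported fit in black and 15 other ways of processing in grey. The interval holds 0 in every panel and setting shown, and the estimates range from 0.04 to 0.56 for LINC00116, from -0.17 to 0.13 for LINC00493 and from -0.10 to 0.48 for LINC00998.

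Neighbouring genes were read beside each gene, since clones can differ over stretches of a chromosome. Over the 50 tested genes nearest to each, the median log2 fold change was 0.11 around LINC00116, 0.06 around LINC00493 and 0.28 around LINC00998. The value around LINC00998 was as large as that of the gene itself, and subtracting it left -0.02. Next to LINC00998, BMT2, a sensor of S-adenosylmethionine 177 kb away, had 0.27 (adjusted p = 0.822 by edgeR), and MDFIC, a regulator of transcription 1800 kb away, had 0.38 (adjusted p = 0.582 by edgeR). Next to LINC00493, SEC23B, a COPII coat component 5.93 kb away, had 0.15 (adjusted p = 0.707) and DTD1, which edits misloaded tRNA, 18.3 kb away, had 0.47 (adjusted p = 0.226). On the side of higher coordinates of LINC00116, RGPD6, 268 kb away, fell from 11.7 to 1.87 CPM (-2.65, SE 0.41, adjusted p = 0.00931 by edgeR), but it belongs to a family of near-identical copies whose reads counting could split. These neighbours were chosen by position, and of those given here RGPD6 alone was called.

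Other genes named SMIM, for small integral membrane protein, give the closest comparison by name. The table holds 23 such rows under current symbols, LINC00493 and LINC00998 among them, of which 17 were tested. Of these, 1 rose and 0 fell by edgeR, which is 5.88% against 3.74% of all genes, with a median log2 fold change of 0.04. DESeq2 called 2 of them, edgeR with the GC trend removed 2 and limma-voom 7, against 6.97%, 11.2% and 31.1% of all genes. The riser was SMIM22, a small membrane protein gene, at 1.06, 2.75 and 2.24 CPM in sgControl and 6.80, 9.99 and 5.68 CPM in sgRFX6. Its log2 fold change was 1.88 (SE 0.40, 95% interval 0.97 to 2.79, adjusted p = 0.0374 by edgeR), with every sgRFX6 library above every sgControl library. SMIM5 had -1.13 (SE 0.35) and missed the threshold (adjusted p = 0.136 by edgeR), although its groups did not overlap either. The 6 rows not tested, among them SMIM24, held at most 41 counts each over all 6 libraries.

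Other microproteins followed a list of 13 genes, of which 4 had a row and were tested. The table names 3 of them by older symbols. C7orf49, now CYREN, a regulator of DNA end joining, stood at 48.6, 39.6 and 52.3 CPM in sgControl and at 67.8, 74.3 and 62.5 in sgRFX6, a log2 fold change of 0.54 (SE 0.18, adjusted p = 0.172 by edgeR). PIGBOS1, a mitochondrial outer membrane protein, had 0.26, and C12orf73, now UQCC6, an assembly factor of respiratory complex III, and C7orf73, now STMP1, a mitochondrial short protein, each had 0.16. None of the 4 was called by edgeR or by DESeq2, limma-voom called 1, and 1 had an unadjusted p under 0.05. The shares over all genes were 3.74%, 6.97% and 31.1% called, and 15.6% at an unadjusted p under 0.05 by edgeR.

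**Figure D4:**
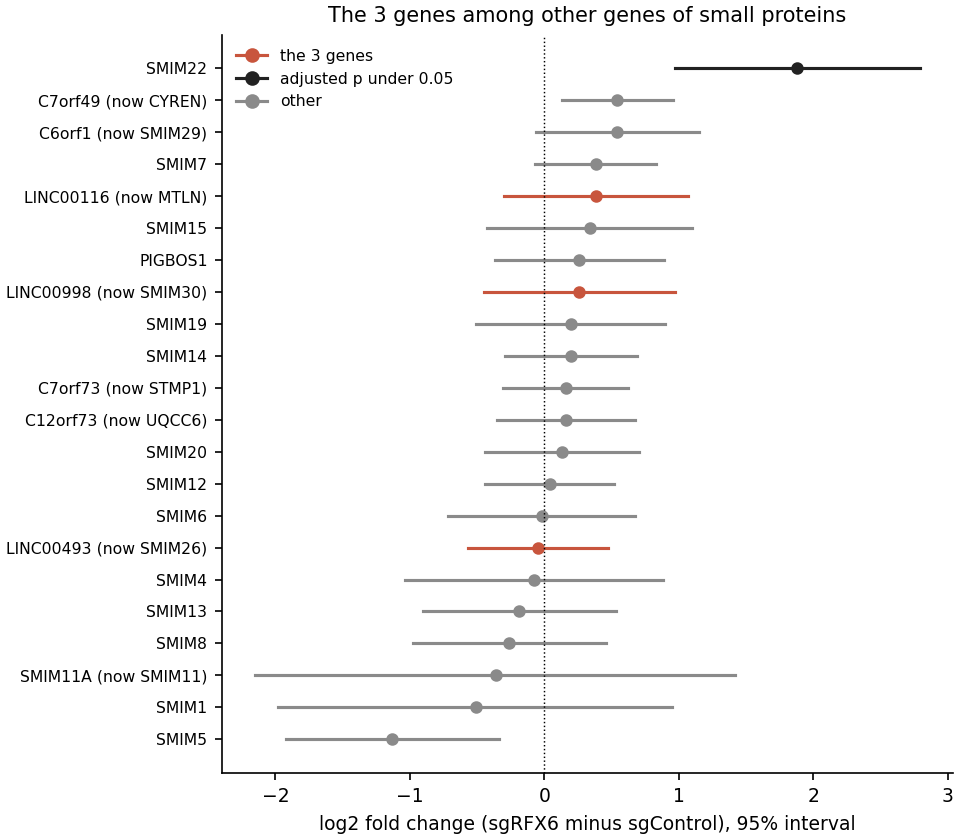
Log2 fold change of sgRFX6 minus sgControl with its 95% interval for the tested SMIM genes, the other tested microprotein genes and LINC00116, with the 3 LINC-named genes in red. SMIM22, at 1.88, is the only gene past the threshold, and the 3 red intervals all hold 0.

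Taking every row whose longest annotated reading frame is at most 300 bases, 185 of 261 were tested, and 2 were called, which is 1.08% against 3.74% over all genes. LINC00493 and LINC00998 are in this set, and LINC00116 is not, since its longest frame has 138 codons. TMSB4X, which encodes the actin-binding peptide thymosin beta 4, rose from 168 ± 6.95 to 276 ± 22.2 CPM (SD, n = 3; log2 fold change 0.72, adjusted p = 0.0374 by edgeR). MT1X, a metallothionein that binds metal ions, fell from 2.03 ± 0.485 to 0.456 ± 0.0843 CPM (-2.13, adjusted p = 0.0177 by edgeR). The share depended on the tool: DESeq2 called 13 of these genes, edgeR with the GC trend removed 12 and limma-voom 46, against 6.97%, 11.2% and 31.1% of all genes. The median log2 fold change over the 185 was 0.09. MT1X is one of many metallothionein genes of similar sequence, so its counts are uncertain.

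Mitoregulin has been tied to respiratory complex I. Rows named NDUF, then A, B, C, S or V and a number, mostly subunits of that complex, were read beside LINC00116. The 38 rows of such a name were all tested, and edgeR called 0 against 3.74% of all genes, with a median log2 fold change of 0.06. By edgeR, 4 had an unadjusted p under 0.05, against 15.6% of all genes. DESeq2 called 2, edgeR with the GC trend removed 1 and limma-voom 6, where these called 6.97%, 11.2% and 31.1% of all genes. NDUFA4, now assigned to complex IV, was nearest the threshold, at 61.5, 53.8 and 57.9 CPM in sgControl and 78.0, 100 and 89.4 CPM in sgRFX6 (log2 fold change 0.63, SE 0.17, adjusted p = 0.0912 by edgeR). NDUFB2 had 0.74 (adjusted p = 0.124 by edgeR) and NDUFA1 0.88 (adjusted p = 0.173 by edgeR). These genes and the lists of SMIM, microprotein and short-frame genes were chosen after the table was seen.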

How the data were processed

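RNA was sequenced from 3 sgControl and 3 sgRFX6 libraries of Hep3B cells. The authors isolated total RNA with Trizol, sequenced cDNA by Illumina and deposited raw counts, without normalisation, in 1 table of 16721 rows with a column per library. The submitters' processing notes name the builds GRCh38 and hg38. The aligner, the counting program, the annotation, the strand setting and any filter are not given in the sources used here. The control columns are named cas without a guide and were taken as sgControl, the only control group. The knockout columns are all named sg3, an RFX6 guide in the paper's methods, and were taken as sgRFX6 with that 1 guide. Of the rows, 816 are named by assembled transcripts and 23 by dates, and 1 without a name, with at most 9.17e-05% of a library's counts, was left out.

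The named rows summed to 20325259, 25070770 and 23094970 reads for sgControl 1 to 3, and to 20814797, 16730374 and 20480848 for sgRFX6 1 to 3. Counts were tested with edgeR 4.0.16 in R 4.3.3: TMM factors, filterByExpr (minimum count 10, minimum total 15, 12839 genes left), the quasi-likelihood test of all 6 libraries without covariates, and Benjamini-Hochberg adjustment over all genes (threshold 0.05). The biological coefficient of variation common to all genes was 0.269. Libraries of a group differed by more than sampling noise (chi-square per degree of freedom 17.0 to 124), so none was treated as a copy. Symbols, positions and GC content came from GENCODE 29 on GRCh38, and 15422 rows matched by name, 255 by another symbol and 1043 not. Promoters, current symbols and gene types were also read from RefSeq (GRCh38.p14). Copies were sought with BLAST 2.17.0 (at least 100 bases at 90% identity). The GC trend (span 0.3, prior count 2, 12205 genes) and the median of the nearest 50 genes were passed to edgeR as offsets.

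The genes named are those that the naming rule selects, their nearest tested neighbours (the result of 1 is not reported here), RFX6, and list members with an adjusted p under 0.05, with the 8 individually named RNAs. Other genes named were chosen after their values were seen. The members and lists were chosen with earlier results of these data known, and the lists were written from general knowledge. Alternatives were scaling by RLE or by library size only, other filters and minimum sums, the replicate block, each library left out, DESeq2 1.42.0, limma-voom (limma 3.58.1) with sample quality weights, and the GC and regional offsets. On simulated counts for this comparison, with 200 changed genes among 12923 tested, edgeR recovered 30% of the 2-fold and 92% of the 4-fold changes, and 9% of its calls were false.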

Additional observations from a re-analysis of the deposited data

How the results depend on the processing

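For the LINC-named genes, 0 of 3 were called in each of the 15 alternative fits. The other minimum sums kept the same 3 genes and reread the reported fit, so they could not change this count. LINC00116 kept a positive log2 fold change in all 15 alternative fits (0.04 to 0.56, adjusted p from 0.332 to 0.958), and leaving out single libraries gave 0.05 to 0.56. LINC00493 turned positive with limma-voom (0.11), without sgControl replicate 2 (0.13) and without sgRFX6 replicate 3 (0.06), and ranged from -0.17 to 0.13 when single libraries were left out. LINC00998 turned negative without sgRFX6 replicate 3 (-0.10) and with the regional median removed (-0.02), and ranged from -0.10 to 0.48 when single libraries were left out. RFX6 ranged from -0.89 to -0.67 in that way, and passed the threshold with the GC trend removed (-0.85, adjusted p = 0.0468 by edgeR) and with limma-voom (-0.96, adjusted p = 0.00274). Over all genes, 480 calls became 895 with DESeq2, 1361 with the GC trend removed and 3998 with limma-voom, and 212 to 718 when single libraries were left out (306 without sgControl replicate 1, 212 without sgControl replicate 3, 216 without sgRFX6 replicate 1 and 307 without sgRFX6 replicate 2). The causes were not tested.

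With the replicate number as a block, edgeR gave 648 calls, and log2 fold changes of 0.34 for LINC00116 (adjusted p = 0.831), -0.04 for LINC00493 (adjusted p = 0.990), 0.20 for LINC00998 (adjusted p = 0.932) and -0.81 for RFX6 (adjusted p = 0.322). Libraries with the same number had correlations of their deviations of -0.41, 0.17 and -0.09. No library correlated best with its own number: sgControl 1, 2 and 3 correlated best with sgRFX6 3, 1 and 2 (0.57, 0.44 and 0.28). Whether libraries of the same number were handled together was not tested.

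The 3 genes had 218 to 935 counts in each library. With 3 libraries a group, 2-fold changes were recovered in 30% of simulated cases.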

Other observations

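Of lists of RNA-binding and nuclear proteins that work with long noncoding RNAs, the proteins of paraspeckles, the nuclear bodies built on NEAT1, were all measured. None of the 16 was called by edgeR or DESeq2, 0 had an unadjusted p under 0.05, limma-voom called 2 against 31.1% of all genes, the groups did not overlap in 4 against 23.1% of all genes, and the median log2 fold change was -0.03. The 14 nuclear speckle proteins, of the bodies where MALAT1 resides, had a median of -0.13, with 0 called by edgeR or DESeq2, 0 at an unadjusted p under 0.05 and 6 called by limma-voom, and with groups that did not overlap in 2. Over all genes edgeR called 3.74% and DESeq2 6.97%, and 15.6% had an unadjusted p under 0.05 by edgeR.

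Of 45 other long noncoding RNAs listed by name, 1 had a row: DLEU1, with a log2 fold change of 0.04. The 29 host genes of small nucleolar RNAs, the 16 liver-enriched noncoding RNAs and the 28 mitochondrially encoded genes had 0 rows. Replication-dependent histone genes, whose transcripts mostly lack a poly(A) tail, had 19 rows of 20 listed. They took between 0.0218% and 0.0357% of the counts in sgControl and between 0.0215% and 0.0273% in sgRFX6. Of 9 tested, edgeR called 0, with 1 at an unadjusted p under 0.05, DESeq2 called 0 and limma-voom 4. Over all genes edgeR called 3.74%, with 15.6% at an unadjusted p under 0.05, DESeq2 6.97% and limma-voom 31.1%.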
